A study of Mus musculus with 10 samples.

Results

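Lrg1 and 9 genes of the transforming growth factor beta (TGF-beta) system were followed in the hypothalamus of mice carrying the C26 colon tumour, which is grafted into mice to study the wasting of cancer cachexia. Lrg1 was chosen by its measured difference between tumour-bearing mice and controls on these arrays, so its difference between groups is given as a description without a test. The other 9 genes, Eng, Acvrl1, Tgfbr1, Tgfbr2, Tgfbr3, Tgfb1, Tgfb2, Tgfb3 and Smad3, were chosen as the receptors, ligands and transducer of the pathway on which Lrg1 acts. A gene was measured by the brightest probe set that a platform annotation paired with that gene alone. Of the 10 genes, 9 had such a probe set, exactly 1 each, out of 18820 genes with one on the array. Tgfbr2 shared its probe set with another gene and is not analysed here.

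The tumour-bearing group was 5 male CDF1 mice, a BALB/c by DBA/2 cross, given 1000000 C26 cells under the skin of the flank in 0.2 ml of buffered salt solution. The control group was 3 male CDF1 mice given a sham injection of the same volume. All were dissected on day 20, at 10 to 11 weeks of age by the labels, and each hypothalamus was hybridised to its own array. A further array held RNA pooled from 5 tumour-bearing mice and another held RNA pooled from 4 controls. Whether any mouse is on both a pooled and a single array is not stated, and the pooled values stand beside the others and entered no main test.

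Levels are the authors' RMA values, read as log2, so a difference of 1 is a doubling. Array medians lay between 5.27 and 5.32, and correlations between the 8 single arrays over the tested probe sets were 0.980 to 0.989. Levels of different probe sets cannot be set against each other. All 12 hypothalamic marker genes, among them Avp, Oxt and Trh, passed the filter for testing, although Rax, a tanycyte transcription factor gene, was under the dim level in 3 tumour-bearing mice and 1 control. Their summed linear level was 6081 to 8016 in tumour-bearing mice and 5590 to 6150 in controls. Transcripts of the neighbouring pituitary varied between mice: Gh, growth hormone, was 10.45 and 10.48 in tumour-bearing mice 3 and 4, and 4.76, 5.51 and 4.87 in tumour-bearing mice 1, 2 and 5. Controls had 4.24, 4.45 and 4.21 for Gh, and the pools had 9.82 (tumour-bearing) and 4.37 (control). Values without mice 3 and 4 are therefore given where they bear on a result.

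Lrg1 encodes leucine-rich alpha-2-glycoprotein 1, a secreted acute-phase protein that is also stored in neutrophil granules and made by endothelium under inflammatory stimulation. In mouse vessels it binds endoglin, the co-receptor encoded by Eng, and shifts TGF-beta signalling in endothelial cells towards the type I receptor ALK1, encoded by Acvrl1, which acts through Smad1 and Smad5. In most other cells TGF-beta ligands bring together the type II receptor and the type I receptor ALK5, encoded by Tgfbr1, which phosphorylates Smad2 and Smad3.

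The 250 bases upstream of the annotated start of Lrg1, the gene that differed, and of Eng, its receptor gene, which was not called, are shown with those of Plin4, a neighbour of Lrg1 described further on. They are RefSeq sequences of GRCm38.p6, from C57BL/6J and not from the CDF1 mice arrayed, written 5′ to 3′ along the gene. Capitals mark CAGAC or its reverse complement, a short Smad-binding element.
Lrg1, chr17:56121947-56122196, minus strand: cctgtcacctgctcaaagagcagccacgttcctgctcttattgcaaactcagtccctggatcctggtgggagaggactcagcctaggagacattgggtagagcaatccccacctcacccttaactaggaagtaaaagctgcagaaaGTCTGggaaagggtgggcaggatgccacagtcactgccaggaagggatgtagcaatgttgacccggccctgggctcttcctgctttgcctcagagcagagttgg
Eng, chr2:32646345-32646594, plus strand: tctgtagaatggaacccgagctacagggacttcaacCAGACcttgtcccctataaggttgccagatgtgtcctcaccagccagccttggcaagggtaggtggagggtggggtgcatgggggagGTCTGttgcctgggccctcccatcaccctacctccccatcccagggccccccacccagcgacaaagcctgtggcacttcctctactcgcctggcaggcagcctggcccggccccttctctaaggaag
Plin4, chr17:56109783-56110032, minus strand: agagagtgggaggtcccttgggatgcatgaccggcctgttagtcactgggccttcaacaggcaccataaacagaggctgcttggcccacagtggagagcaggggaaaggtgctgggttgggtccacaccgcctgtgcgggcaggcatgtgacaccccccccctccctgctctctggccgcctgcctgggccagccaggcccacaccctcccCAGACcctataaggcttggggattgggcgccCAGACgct
Promoter windows of 300 bases, 250 before and 50 after the start, were listed for 7 of the 10 genes. On both strands, Lrg1, Eng and Plin4 each held CAGAC 2 times, and 49.6% of the 32851 windows in the table held it at least once. In Lrg1 the matches began at -104 and at 42 from the start. The Lrg1 window also held TATAAA at 12, a TATA-type element present in 13.6% of windows. None of these 3 windows held TTCNNNGAA (STAT-type, 8.30% of windows), TTGCNNAA (C/EBP-type, 10.8%) or ACANNNTGT (glucocorticoid receptor-type, 6.85%). These are matches of letters in a short window and say nothing of binding.

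Lrg1 was higher in every tumour-bearing mouse than in any control. Its level was 6.33, 6.01, 6.27, 6.26 and 5.88 in tumour-bearing mice 1 to 5, against 4.21, 4.56 and 4.76 in controls 1 to 3. The groups were separated by a gap larger than the range inside either of them. The means were 6.15 ± 0.19 (SD, n = 5) in tumour-bearing mice and 4.51 ± 0.28 (SD, n = 3) in controls, a log2 difference of 1.64 or 3.12-fold. Control 1 lay below 4.32, the level under which a probe set counted as dim. With that value raised to 4.32 the difference was 3.04-fold. In the pools Lrg1 was 6.27 (tumour-bearing) and 3.97 (control), at least 3.86-fold apart with the dim control pool raised to 4.32. Of all tested genes, 0.524% were more than 1.5-fold higher in the tumour-bearing pool.

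The 5 tumour-bearing mice differed little from each other for Lrg1 beside the difference between the groups. Mice 3 and 4, with the high Gh, were at 6.27 and 6.26, inside the range of the other 3 mice, and without them the log2 difference was 1.57. Leaving out any 1 mouse gave 1.49 to 1.76. Lrg1 was among the 0.0771% of 12978 tested genes past the threshold (higher direction), which is how it was chosen. It fell out of them without control 2, at a log2 difference of 1.67, and without control 3, at 1.76. It also fell out without tumour-bearing mice 3 and 4, at 1.57, and with a replicate block for same-numbered mice, at 1.69.

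**Figure D1:**
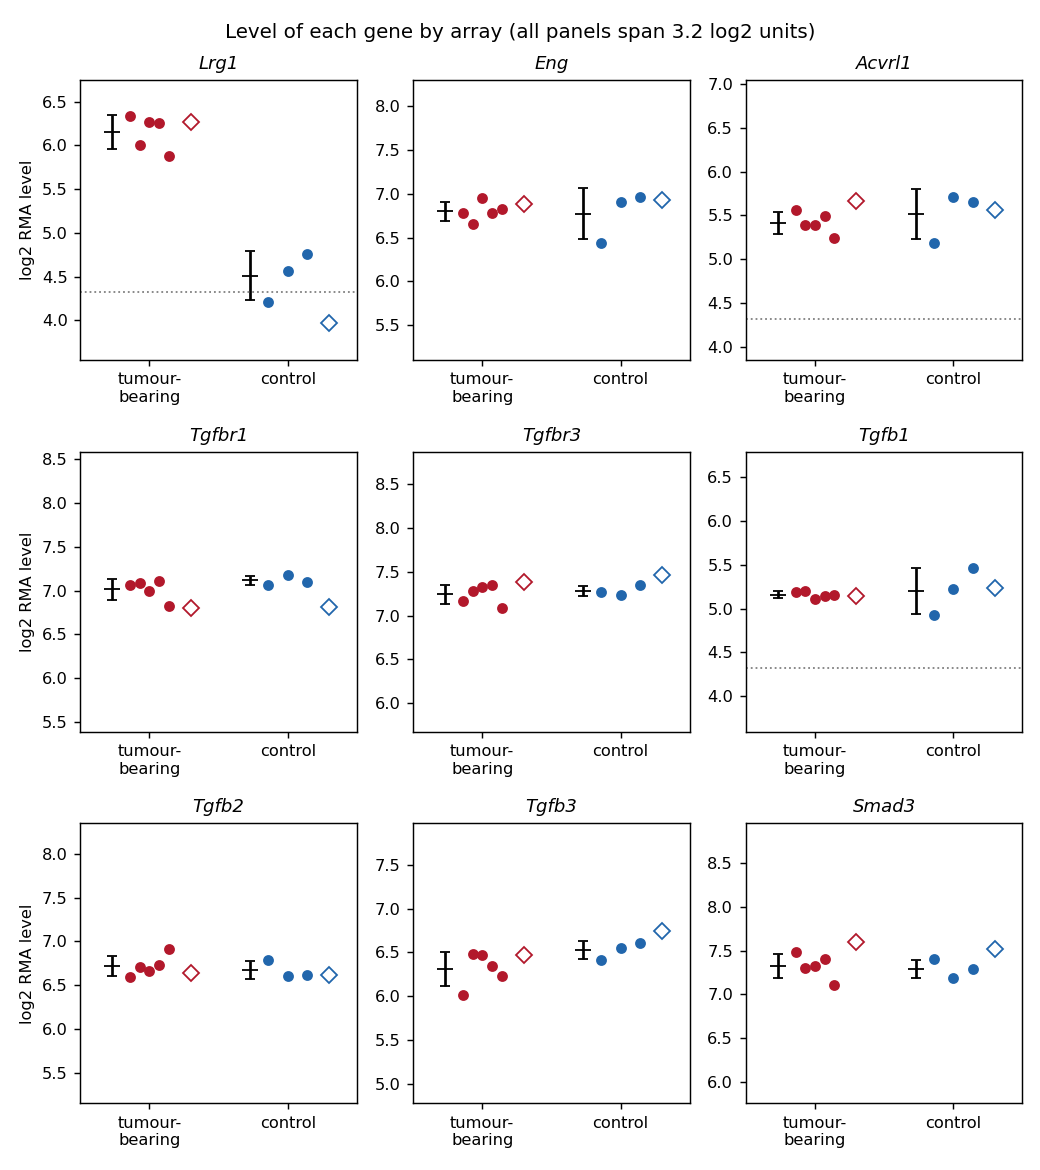
Log2 RMA level of each measured gene (vertical axis, every panel spanning the same number of log2 units) in tumour-bearing mice (red, left) and controls (blue, right). Filled circles are single mice in replicate order, bars give the mean and SD, open diamonds are the pooled arrays and the dotted line is the dim level of 4.32. Only Lrg1 separates the groups, while the circles of the other 8 genes overlap.

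Leukocytes, among which neutrophils hold Lrg1, and red cell precursors were looked for through their markers. Of 12 neutrophil and leukocyte genes, 10 had a probe set of their own. Ptprc, the pan-leukocyte gene CD45, alone reached the level for testing, with 4.67, 4.98, 4.56, 4.63 and 4.55 in tumour-bearing mice and 4.85, 4.68 and 4.78 in controls. The neutrophil granule and calprotectin genes S100a8, S100a9, Mpo, Elane, Camp, Ngp, Ltf and Cd177 stayed under that requirement. Of these, Ngp, neutrophilic granule protein, was dim on every single array, at 3.50, 3.47, 3.11, 3.49 and 3.57 in tumour-bearing mice and 2.95, 2.90 and 2.93 in controls, groups that did not overlap. The summed linear level of the 10 genes was 134 to 145 in tumour-bearing mice and 123 to 135 in controls. Alas2, an enzyme of haem synthesis in red cell precursors and the only 1 of 6 erythroid genes with its own probe set, was 6.02, 5.89, 7.77, 6.43 and 5.62 in tumour-bearing mice and 5.21, 5.02 and 4.59 in controls (log2 difference 1.41 ± 0.42 SE, limma adjusted p = 0.306). Tumour-bearing mice 3 and 4 had the highest Alas2, and without them its log2 difference was 0.91. Its part in the Lrg1 difference was not tested.

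None of the 8 other measured genes was called higher or lower by limma, and 0 of them passed an unadjusted p of 0.05, which 10.3% of all tested genes did. Their log2 differences ran from -0.21 to 0.04, with a median of -0.04 against -0.01 for all tested genes, and their limma adjusted p from 0.554 to 0.966. In the pools Tgfbr1, Tgfbr3, Tgfb1, Tgfb2 and Smad3 differed by -0.01, -0.08, -0.09, 0.02 and 0.08, in that order. In every one of the 8 genes the groups of single mice overlapped. Groups did not overlap in 8.30% of all tested genes.

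Eng, the endoglin gene, was nearly level between groups. It was 6.78, 6.66, 6.95, 6.78 and 6.83 in tumour-bearing mice, against 6.44, 6.91 and 6.97 in controls. Control 1 was the lowest and control 3 the highest of the 8 arrays, so the controls spanned the tumour-bearing mice. The log2 difference was 0.03 ± 0.12 SE (limma adjusted p = 0.966), and its 95% interval ran from 0.844-fold to 1.23-fold. The pools stood at 6.88 (tumour-bearing) and 6.93 (control).

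Acvrl1, the gene of the ALK1 receptor, showed the same arrangement. It was 5.56, 5.39, 5.39, 5.49 and 5.24 in tumour-bearing mice, against 5.19, 5.71 and 5.65 in controls. Here too control 1 was the lowest of the 8 arrays, and the other 2 controls lay above every tumour-bearing mouse. The log2 difference was -0.10 ± 0.13 SE (limma adjusted p = 0.843), with a 95% interval of 0.757-fold to 1.15-fold, and the pools differed by 0.10. Without control 1 the difference of Acvrl1 was -0.26 and that of Eng was -0.14, and neither was called.

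Tgfbr1, the gene of ALK5, was 7.06, 7.09, 7.0, 7.11 and 6.82 in tumour-bearing mice, against 7.07, 7.18 and 7.10 in controls. Tumour-bearing mice 1, 3 and 5 lay below all controls and mice 2 and 4 lay among them. The log2 difference was -0.10 ± 0.08 SE (limma adjusted p = 0.700), with a 95% interval of 0.831-fold to 1.05-fold.

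Tgfbr3 encodes betaglycan, a co-receptor related to endoglin that presents TGF-beta 2 to the type II receptor. It was 7.17, 7.28, 7.33, 7.35 and 7.09 in tumour-bearing mice, against 7.27, 7.24 and 7.35 in controls. Tumour-bearing mice 1 and 5 lay below all controls and the other 3 between the lowest and the highest control, with a log2 difference of -0.04 ± 0.07 SE (limma adjusted p = 0.880). Its 95% interval, 0.869-fold to 1.08-fold, was the narrowest of the 8 genes other than Lrg1.

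**Figure D2:**
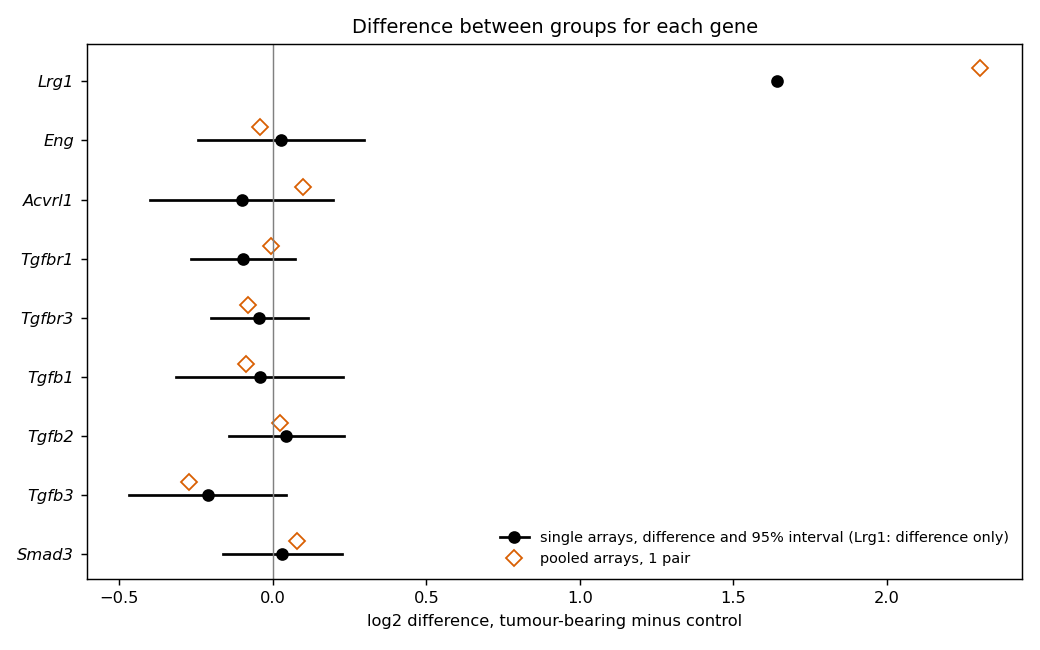
Log2 difference between tumour-bearing mice and controls (horizontal axis) for each measured gene. Black circles are the 8 single arrays, with lines for the 95% confidence interval of every gene but Lrg1, and orange diamonds are the 1 pair of pooled arrays. Lrg1 lies at 1.64 in single mice and further right in the pools, whose control value is dim, and the intervals of the other 8 genes all include 0.

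Tgfb3, the ligand gene with the largest difference of the 3, was 6.01, 6.48, 6.47, 6.35 and 6.23 in tumour-bearing mice, against 6.41, 6.55 and 6.61 in controls. Tumour-bearing mice 1, 4 and 5 were below all controls, and mice 2 and 3 were within their range. The log2 difference was -0.21 ± 0.11 SE (limma adjusted p = 0.554), with a 95% interval of 0.723-fold to 1.03-fold. The pools differed in the same direction, 6.47 (tumour-bearing) and 6.74 (control).

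Tgfb1, the ligand best known from immune and wound responses, was 5.19, 5.2, 5.11, 5.14 and 5.16 in tumour-bearing mice, against 4.93, 5.22 and 5.46 in controls. The tumour-bearing mice lay within 0.09 of each other, between the lowest and the highest control. Tgfb1 differed by a log2 value of -0.04 ± 0.12 SE (limma adjusted p = 0.938).

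Tgfb2, a ligand made by neurons and glia, was 6.59, 6.71, 6.66, 6.73 and 6.91 in tumour-bearing mice, against 6.79, 6.61 and 6.62 in controls. Mouse 5 was the highest and mouse 1 the lowest of the 8 arrays, so the tumour-bearing mice enclosed the controls. Tgfb2 differed by a log2 value of 0.04 ± 0.08 SE (limma adjusted p = 0.899).

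Smad3, the transducer downstream of ALK5, was 7.48, 7.30, 7.32, 7.41 and 7.11 in tumour-bearing mice, against 7.40, 7.19 and 7.29 in controls. Again tumour-bearing mice were both the highest and the lowest, with a log2 difference of 0.03 ± 0.09 SE (limma adjusted p = 0.937). Mouse 5 was the lowest of the 8 arrays for Smad3, Tgfbr1 and Tgfbr3, and control 1 was the lowest for Lrg1, Eng, Acvrl1 and Tgfb1.

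Eng and Acvrl1 are endothelial genes, so other endothelial and mural markers are set beside them. In whole tissue, fewer cells of a type and less RNA per cell cannot be told apart. Of 15 tested endothelial markers 0 were called, and 1 was higher and 2 lower at an unadjusted p under 0.05 (limma; 3.78% and 6.51% of all tested genes). Their median log2 difference was -0.02, and their summed linear level was 3362 to 3989 in tumour-bearing mice and 3357 to 3801 in controls. Control 1, which had the lowest Eng and Acvrl1, also had the lowest sum, at 3357, but tumour-bearing mouse 5 was nearly level with it at 3362. Slc2a1, the brightest of these markers (10.55 in control 1), weighs most in the sum.

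Vwf, the von Willebrand factor gene of endothelial storage granules, stood apart from the other endothelial markers in size. It was 6.77, 6.63, 7.24, 6.78 and 6.55 in tumour-bearing mice, against 5.53, 6.08 and 6.29 in controls, without overlap (3.11% of tested genes were higher without overlap). Its log2 difference was 0.82 ± 0.19 SE (limma adjusted p = 0.240), so it was not called. Itm2a, a membrane protein gene enriched in brain vessels, differed by -0.32 ± 0.09 SE (limma adjusted p = 0.304).

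Of 8 mural cell markers, genes of pericytes and vascular smooth muscle, 0 were called by limma (0 higher and 2 lower at an unadjusted p under 0.05, against 3.78% and 6.51% of all tested genes), and 7 had a difference below 0, as did 54.5% of all tested genes. Rgs5, a pericyte regulator of G-protein signalling, was 7.34, 7.45, 7.39, 7.30 and 7.18 in tumour-bearing mice, against 7.66, 7.80 and 7.71 in controls. All tumour-bearing mice were below all controls, as in 5.19% of tested genes. The log2 difference was -0.39 ± 0.07 SE (limma adjusted p = 0.112). Rgs5 passed the threshold with the pooled arrays added as samples (-0.40, limma adjusted p = 0.0275), a fit that may count the same mice again. It also passed when the model was fitted on probe sets with 1 gene alone (limma adjusted p = 0.0253), and under none of the other 17 alternatives. Vtn, vitronectin, differed by -0.36 ± 0.14 SE (limma adjusted p = 0.418). The summed linear level of the mural genes was 1092 to 1459 in tumour-bearing mice and 1453 to 1782 in controls. Vtn, the brightest of these genes (9.67 in control 1), weighs most in that sum.

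The wider TGF-beta and BMP pathway was covered by 6 lists with 87 genes, of which 76 were tested. None was called by limma. At an unadjusted p under 0.05 there were 2 higher and 5 lower, 9.21% of the 76 genes against 10.3% of all tested genes. The groups did not overlap for 5 genes, 6.58% against 8.30%. The median log2 difference of the 76 genes was -0.03, and that of all tested genes was -0.01.

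Genes that store or activate latent TGF-beta numbered 11 tested, 4 above and 7 below 0, with a median of -0.17. Of all tested genes, 54.5% were below 0. Dcn, the TGF-beta-binding proteoglycan decorin, differed by -0.31 ± 0.18 SE and Lrrc32, which holds latent TGF-beta on the cell surface, by -0.26 ± 0.18 SE. With any 1 mouse left out, Dcn ran between -0.38 and -0.20 and Lrrc32 between -0.45 and -0.053, the last without control 3. Dcn is also a gene of meningeal fibroblasts. All 6 tested meningeal markers were below 0, against 54.5% of all tested genes. The summed level of these markers was 661 to 1123 in tumour-bearing mice and 1007 to 1320 in controls. Aldh1a2, the meningeal enzyme of retinoic acid synthesis, differed by -0.63 ± 0.24 SE and Lum, lumican, by -0.43 ± 0.25 SE (limma adjusted p = 0.413 and 0.586). The part of meningeal tissue in the Dcn difference was not tested.

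Of 10 tested BMP and activin ligand genes, 2 were above and 8 below 0, against 54.5% of all tested genes below 0. Bmp4 differed by -0.23 ± 0.14 SE and Inhbb, an activin subunit, by -0.23 ± 0.11 SE. The 11 tested BMP and activin receptor genes were split 6 above and 5 below 0, with Acvr1c, the ALK7 receptor, at -0.23 ± 0.12 SE and Acvr2a, an activin type II receptor, at 0.12 ± 0.08 SE. The 20 Smads and regulators had a median of -0.01. Tgif1, a co-repressor of Smad transcription, differed by 0.17 ± 0.10 SE and Bambi, a decoy receptor, by 0.16 ± 0.13 SE.

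Genes that Smad3 signalling induces in other tissues lay on both sides of 0, 7 above and 8 below 0 of 15 tested. Cdkn1a, the cell cycle inhibitor p21, which also responds to glucocorticoids and DNA damage, was 8.98, 8.20, 8.16, 8.52 and 8.35 in tumour-bearing mice, against 7.83, 7.83 and 7.85 in controls. Every tumour-bearing mouse was above the controls, as in 3.11% of tested genes, with a log2 difference of 0.60 ± 0.16 SE (limma adjusted p = 0.277). Postn, the matrix protein periostin, was 4.79, 5.22, 4.96, 5.10 and 4.45 in tumour-bearing mice, against 5.32, 5.55 and 5.57 in controls. Here every tumour-bearing mouse was below the controls, as in 5.19% of tested genes, with a log2 difference of -0.57 ± 0.17 SE (limma adjusted p = 0.306). Genes induced by ALK1 and Smad1/5 in endothelium had a median of 0.05 over 9 tested, with Id3 at 0.18 ± 0.10 SE and Id2 at -0.24 ± 0.09 SE, both inhibitors of differentiation. Id3 was 0.073 without control 1. Hey1 of the same list was below all controls in every tumour-bearing mouse, as in 5.19% of tested genes. Its log2 difference was -0.17 ± 0.05 SE (limma adjusted p = 0.305), while the pools differed by 0.18 in the other direction. How much of these levels in whole tissue comes from endothelium was not tested.

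**Figure D3:**
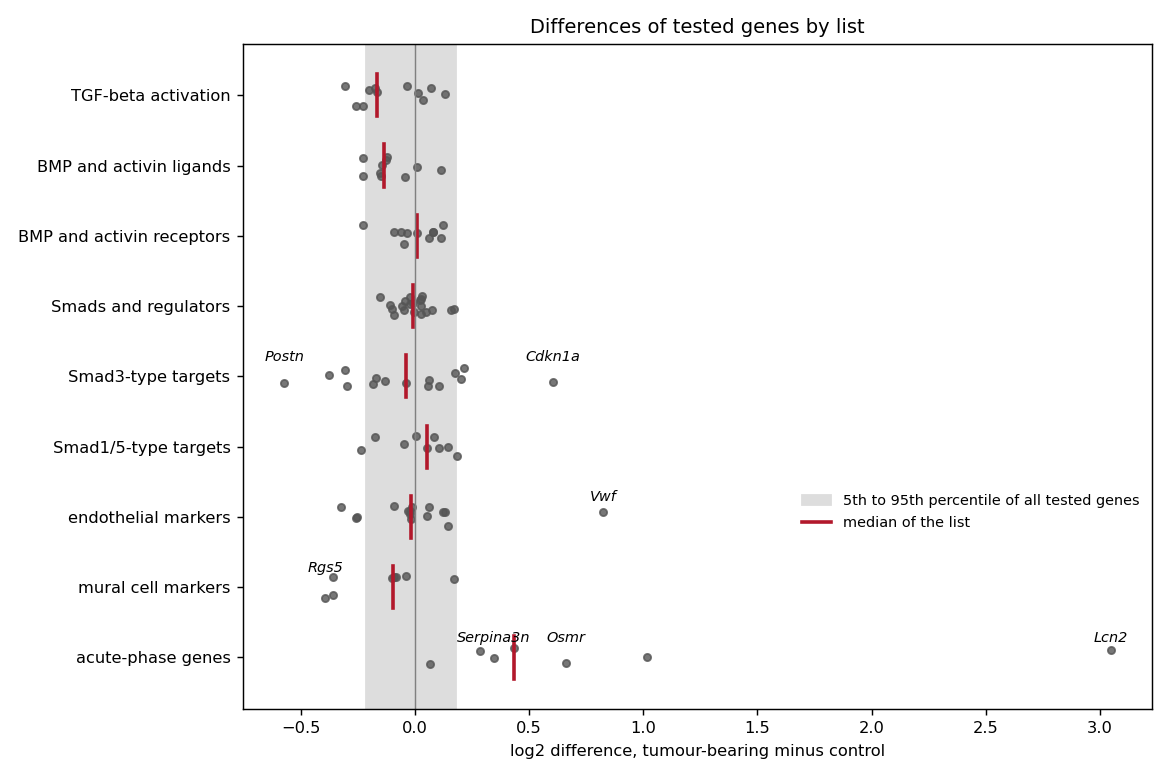
Log2 difference between tumour-bearing mice and controls (horizontal axis) for the tested genes of each list (rows), 1 point per gene. Red bars are list medians and the grey band holds the 5th to 95th percentile of all tested genes, -0.21 to 0.18. Of the pathway lists, TGF-beta activation has the median furthest from 0, at -0.17. The acute-phase genes, listed with the rise of several known, lie to the right of 0.

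Lrg1 is also an acute-phase gene, and a list of other acute-phase and cytokine response genes is set beside it. That list was written with the rise of several of its genes known. Of 18 genes listed, 16 had a probe set of their own and 7 were tested. All 7 were above 0, with a median of 0.44, and 2 rose past the threshold, as did 0.0771% of all tested genes. With the genes listed in that way, these counts are a description and not a test. The median is the value of Socs3, which was dim in 2 controls and 1 tumour-bearing mouse. With the dim values raised to 4.32 the Socs3 difference was 0.27. Saa2, Saa3, Hp, Orm1, Orm2, Fga, Fgb, Fgg and Steap4 did not reach the level for testing. Lcn2, the iron-carrier-binding protein lipocalin 2, was 7.25, 6.40, 7.51, 7.48 and 6.94 in tumour-bearing mice, against 4.33, 3.77 and 4.10 in controls. It passed the filter through the tumour-bearing arrays, and its rise was known beforehand, so its calls here are a description and not a test. With the 2 dim controls raised to 4.32 the group means lay at least 2.79 apart on the log2 scale. Serpina3n, a serine protease inhibitor of reactive astrocytes, rose by 0.35 ± 0.04 SE (limma adjusted p = 0.0308). It was listed with earlier results of these arrays known, so its calls are a description as well. The count was 0 to 3 with any 1 mouse left out, with Lcn2 not called without control 3 (limma adjusted p = 0.0509). Without tumour-bearing mice 3 and 4 neither gene was called (limma adjusted p = 0.0562 for Lcn2 and 0.163 for Serpina3n), nor with the replicate block (0.0968 and 0.631). Serpina3n was also not called when tumour-bearing mouse 1, 4 or 5 or any single control was left out, at differences of 0.33 to 0.36, nor with no filter (limma adjusted p = 0.0571), without the variance trend (0.120) or with the pools as samples (0.427). Of 8 tested astrocyte markers 6 were below 0, against 54.5% of all tested genes. Aqp4, the water channel of astrocyte endfeet, differed by -0.51 ± 0.11 SE (limma adjusted p = 0.219, and 0.0222 without tumour-bearing mouse 2, at -0.60). Slco1c1, a thyroid hormone transporter of astrocytes and endothelium, differed by -0.35 ± 0.09 SE. Of 8 tested microglial genes 1 was above and 7 were below 0, against 54.5% of all tested genes below 0. The 1 above was C1qa, a complement subunit gene, at 0.26 ± 0.09 SE (limma adjusted p = 0.382), named after its value was seen. The largest differences were those of Cx3cr1, the fractalkine receptor, at -0.30 ± 0.15 SE and Itgam, an integrin subunit, at -0.29 ± 0.16 SE.

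The genes whose profile over the 8 single arrays was most like that of Lrg1 were found by standardising each of the 12978 tested genes to mean 0 and SD 1 and taking the mean absolute difference from Lrg1. The closest were Ets2, an ETS-family transcription factor gene (0.148 SD units), Acacb, the mitochondrial acetyl-CoA carboxylase gene (0.160), Cdk9, a transcription elongation kinase gene (0.174), Osmr, the oncostatin M receptor gene (0.183), and Nr2c2, an orphan nuclear receptor gene (0.185). As the groups lie far apart for Lrg1, likeness mostly means that the groups lie apart for the other gene too. The sizes were unlike: the log2 difference was 1.64 for Lrg1 and 0.66 for Osmr, but 0.18 for Ets2, 0.22 for Acacb, 0.15 for Cdk9 and 0.10 for Nr2c2. Osmr was 6.74, 6.56, 6.94, 6.62 and 6.57 in tumour-bearing mice and 5.94, 6.01 and 6.13 in controls (limma adjusted p = 0.0654). It was called without tumour-bearing mouse 2 (limma adjusted p = 0.0483, at 0.69), with the filter at 50 (0.0448), array weights (0.0489), the pools as samples (0.0224) or a fit on probe sets with 1 gene alone (0.00779), and not under the other alternatives. These genes were picked by their values on these arrays, so the calls of Osmr are a description and not a test. In the pools the difference was 0.91 for Osmr and 0.05 for Ets2.

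**Figure D4:**
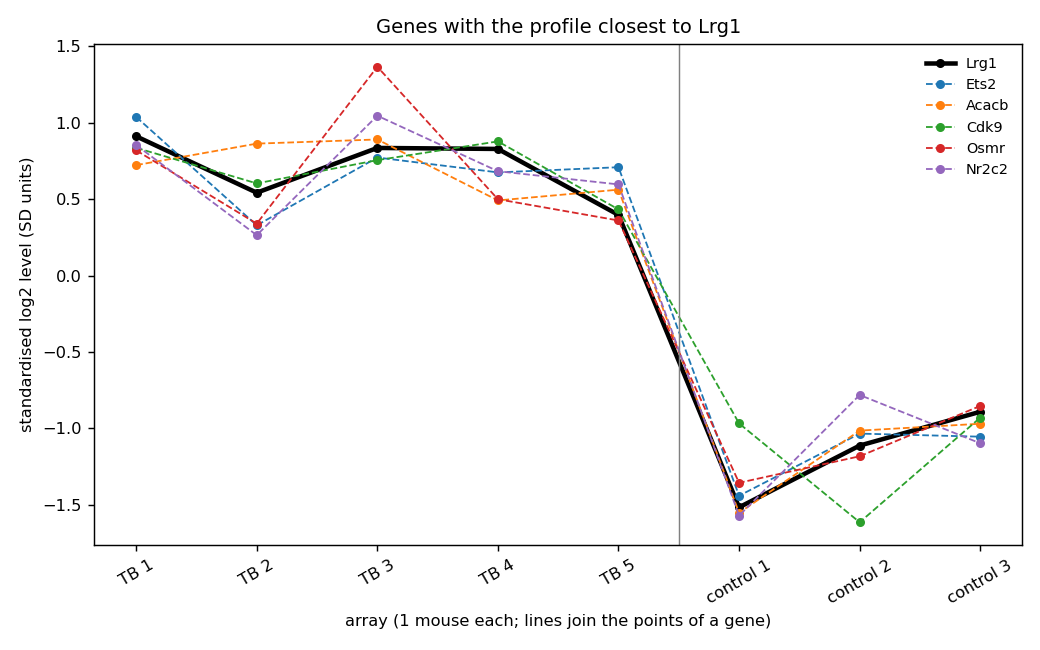
Standardised log2 level (vertical axis, SD units) of Lrg1 (thick black) and the 5 genes with the closest profile over the 5 tumour-bearing mice (left of the line) and the 3 controls (right of it), 1 mouse per position. All 6 genes are above 0 in every tumour-bearing mouse and below 0 in every control.

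Lrg1 lies on chromosome 17 between Plin5 and Sema6b in the RefSeq order of protein-coding genes, with Plin4 on the far side of Plin5. These neighbours were looked at after the value of Plin4 was known. Plin4, a lipid droplet coat protein gene, was 7.31, 6.11, 6.14, 6.64 and 6.54 in tumour-bearing mice, against 5.29, 5.37 and 5.44 in controls. Every tumour-bearing mouse was above every control, as in 3.11% of tested genes. The order of the mice differed from that of Lrg1, mouse 2 being lowest for Plin4 and mouse 5 for Lrg1. The log2 difference of Plin4 was 1.18 ± 0.24 SE (limma adjusted p = 0.191), and 0.0319 when the model was fitted on probe sets with 1 gene alone.

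Plin5, the lipid droplet gene next to Lrg1, did not reach the level for testing: it was 4.28, 4.18, 4.17, 4.07 and 4.26 in tumour-bearing mice, against 4.24, 4.30 and 4.14 in controls. Sema6b, an axon guidance ligand gene on the other side, was 8.36, 8.17, 8.12, 8.17 and 8.17 in tumour-bearing mice, against 7.88, 8.21 and 8.28 in controls. Among the 4 nearest neighbours on each side, the 5 tested genes other than Plin4 had log2 differences of -0.17 to 0.08 (limma adjusted p 0.607 to 0.975), and Ubxn6 had no probe set of its own. Lrg1 and Plin4 were thus separated by a gene at a dim, overlapping level in both groups.

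**Figure D5:**
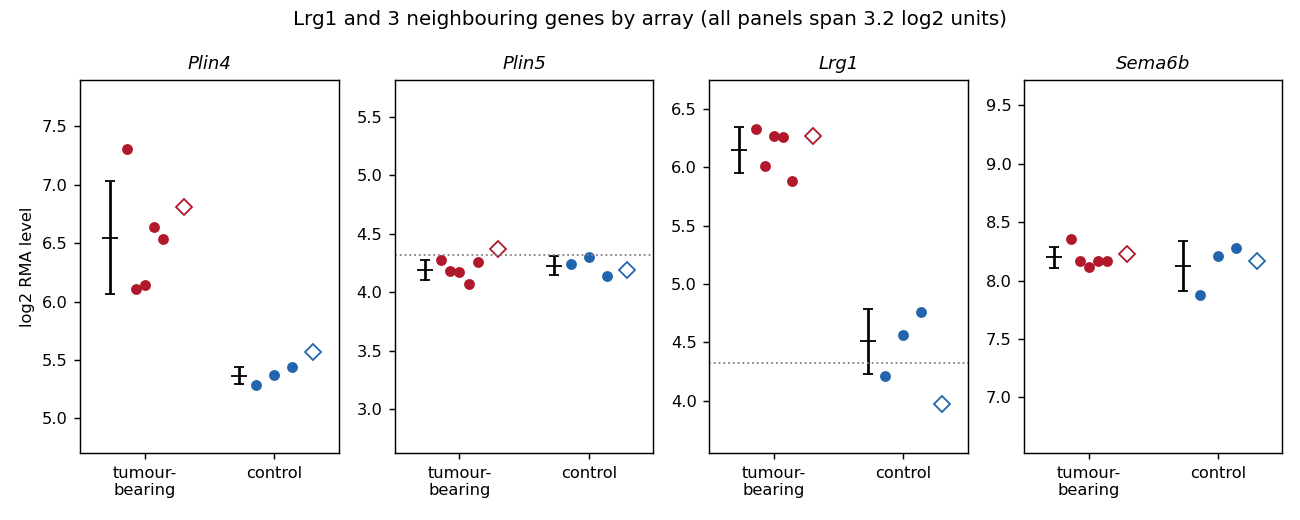
Log2 RMA level (vertical axis, every panel spanning the same number of log2 units) of Plin4, Plin5, Lrg1 and Sema6b, in their order along the chromosome, in tumour-bearing mice (red, left) and controls (blue, right). Filled circles are single mice, bars the mean and SD, open diamonds the pooled arrays and the dotted line the dim level of 4.32. The groups separate for Plin4 and Lrg1 and overlap for Plin5 and Sema6b.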

How the data were processed

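Hypothalamic RNA of 10 samples was measured on whole-transcript arrays. The authors deposited log2 expression levels per probe set; RMA is the tool named, per the submitters' processing notes; the version, probe set definition and log base in words are not given in the sources used here, and log2 was read from the range of the values. Because RMA equalises the distributions of the arrays, a common shift of all genes is hidden, and folds come out compressed. The number of arrays limits precision.

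Of 35556 probe sets, 21218 had 1 gene, 1881 several and 12457 none in the platform annotation; updating symbols changed 0. Probe sets above 20 on the linear scale (4.32 in log2) on at least 3 of the 8 single arrays were tested, 22837 in all, standing for 12978 genes. All 9 measured genes of the set passed, Lrg1 through the tumour-bearing arrays and controls 2 and 3. Groups were compared with limma 3.58.1 (lmFit, eBayes with trend) in R 4.3.3, Benjamini-Hochberg adjusted over the 22837 probe sets, at 0.05 and 95% confidence intervals. Data were simulated for these 22837 probe sets with 200 of them changed by 0.5, 1 or 2 (log2). The test recovered 66.7% of changes of 0.5, 86.6% of 1 and 98.5% of 2, with 8 false calls. The adjusted cutoff loosens as more probe sets change, and on the real arrays only 10 genes were called. These shares therefore do not give the power on the real arrays, where Plin4 was not called at a difference of 1.18.

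The genes and lists were chosen with earlier results of these data known. Named from each list were its called genes or, where none was called, the 2 largest differences. Other genes named as examples, the neighbours of Lrg1 and the motifs were chosen after values were seen. Same-numbered mice of the groups did not deviate together over all tested probe sets (correlations -0.0020, 0.0084 and 0.0089), and the main test did not pair them. Such correlations cannot exclude a pairing that touches few genes. Alternatives were the filter, variance model (robust with statmod 1.5.0), array weights, normalization, replicate block, pools as samples, probe set averaging, the probe sets fitted and mice left out. Figures used matplotlib 3.10.9 in Python 3.11.15.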

Additional observations from a re-analysis of the deposited data

Results flagged for a closer look

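Among the 53 genes checked for a tumour-bearing mouse far from the other 4, 3 had one, and chance alone gives about 1 in 20. Sema6b was highest in tumour-bearing mouse 1, at 8.36, with a gap of 0.759 of the group's range. Ptprc was highest in mouse 2, at 4.98 (gap 0.716 of the range). Otx2, a choroid plexus and anterior brain transcription factor gene, was lowest in mouse 5, at 4.26 (gap 0.766). None of the 9 measured genes of the set had such a mouse, and groups of 3 controls were not checked.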

How the results depend on the processing

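The 8 genes other than Lrg1, and the 76 pathway genes, had 0 calls under each of the 19 alternatives wherever they were tested; the filter at 50 left out Acvrl1, Tgfb1 and some pathway genes. The count with Lrg1 included was 1, and 0 with the replicate block, which had few residual degrees of freedom, and without tumour-bearing mice 3 and 4. It was 0 to 1 with any 1 mouse left out. The Lrg1 difference stayed between 1.49 and 1.80 under all 19. The number of genes called on the whole array, 10 higher and 0 lower, was 39 higher and 29 lower in a fit on probe sets with 1 gene alone, 24 and 29 without tumour-bearing mouse 2, and 0 and 0 with the block, without control 3, or with tumour-bearing mice 3 and 4 left out. Small uncalled differences changed sign. Eng was -0.067 with array weights, -0.017 without tumour-bearing mice 3 and 4 and -0.14 to 0.13 with 1 mouse left out. Tgfb2 was -0.024 with the replicate block and -0.0034 to 0.10 with 1 mouse left out; Tgfb1 was -0.18 to 0.084, Smad3 -0.019 to 0.085, Sema6b -0.048 to 0.15 and Ttr -0.0090 to 0.58 with 1 mouse left out. Ttr was -0.16 without tumour-bearing mice 3 and 4. The cause was not tested.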

Other observations

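Of 6 choroid plexus markers 4 were tested, and 0 were called by limma (0 also at an unadjusted p under 0.05). Ttr, transthyretin, was 5.98, 5.46, 7.04, 7.11 and 6.02 in tumour-bearing mice, against 5.28, 6.20 and 6.46 in controls, with a log2 difference of 0.34 ± 0.41 SE. Mice 3 and 4, which had the highest Ttr, were also those with high Gh. Otx2 differed by -0.44 ± 0.20 SE, with 4 of 5 tumour-bearing mice below all controls. Clic6 and Kl were each above all controls in 4 of 5 tumour-bearing mice, at 0.21 ± 0.11 SE and 0.10 ± 0.10 SE. Of the pituitary genes, Cga, the common subunit of glycoprotein hormones, was 6.66, 7.16, 7.88, 7.80 and 6.93 in tumour-bearing mice, against 7.71, 6.29 and 6.10 in controls, so control 1 was close to mice 3 and 4 for Cga, while its Gh was 4.24.

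Among the hypothalamic peptide genes with the largest differences, Npy was 9.45, 8.87, 9.32, 9.35 and 10.13 in tumour-bearing mice, against 8.79, 8.63 and 8.32 in controls (log2 difference 0.84 ± 0.23 SE, limma adjusted p = 0.284). Oxt, oxytocin, was 9.92, 9.48, 9.93, 10.06 and 9.72 in tumour-bearing mice, against 8.68, 9.47 and 9.33 in controls (0.66 ± 0.18 SE, limma adjusted p = 0.277). Mouse 5 had the highest Npy and the lowest Lrg1 of the tumour-bearing mice.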
